A study of Mus musculus with 10 samples.

Results

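The genes described here are 7 transcription factors linked to the Th17 fate: Rora, Stat3, Batf, Irf4, Runx1, Ikzf3 and Sox5. They were chosen by name among the 22180 genes measured in this study of cultured mouse T helper cells, and all 7 were found, each with a single probe set. Messenger RNA was measured on 10 arrays. The CD4-positive spleen lymphocytes came from wild-type female Balb/c mice aged 10 to 14 weeks. Every culture, the controls included, was stimulated through CD3 (antibody at 4 µg/ml) and through CD28 (antibody at 30 ng/ml). For the medium exchange the labels give 72 h in every culture. The 4 Th17 cultures had 20 ng/ml of IL-6 added, together with 5 ng/ml of TGF-beta, 10 ng/ml of IL-23 and 10 µg/ml of anti-interferon gamma. The 3 Th2 cultures were given IL-4 at 100 ng/ml and the same anti-interferon gamma at 10 µg/ml. The 3 Th0 cultures, the control, had none of these additions. A comparison with Th0 therefore changes the cytokines and the interferon antibody together, and their parts cannot be told apart. The labels call the replicates biological and do not say whether each is a different animal, so the p-values describe the spread among these cultures.

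Th17 cells are helper T cells that secrete interleukin 17 and act at barrier surfaces. Signals through the IL-6 and IL-23 receptors activate STAT3. BATF, IRF4 and STAT3 bind many Th17 genes early, and nuclear receptors of the ROR family act on the cytokine genes themselves. Runx1 is a DNA-binding partner in that programme, Ikzf3 encodes Aiolos, a zinc finger factor that represses Il2, and Sox5 encodes an HMG box factor reported to act with c-Maf in mouse Th17 cells. Several of these proteins are controlled by phosphorylation or by partner choice, which a measurement of messenger RNA does not see.

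In these arrays Rora stood apart from the other 6 factors: it was higher on every Th17 array than on any array of the other groups, by about 2-fold on average. Its adjusted p lay just above the threshold of 0.05 against both groups. Irf4 was highest in Th2 cultures, Batf highest in Th0 cultures and Stat3 lowest in Th2 cultures, none of them past the test. The group means of Runx1, Ikzf3 and Sox5 differed least, with the widest difference 0.401 log2 units for Ikzf3 between Th17 and Th2. Values are log2 expression after RMA, a normalization meant to bring arrays to a common scale, and a difference of 1 is a doubling. The deposited arrays still differed in spread, with an interquartile range from 1.95 (Th2 replicate 3) to 2.41 (Th2 replicate 1). Differences were tested with limma across all genes, and a gene was called at a Benjamini-Hochberg adjusted p under 0.05.

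**Figure D1:**
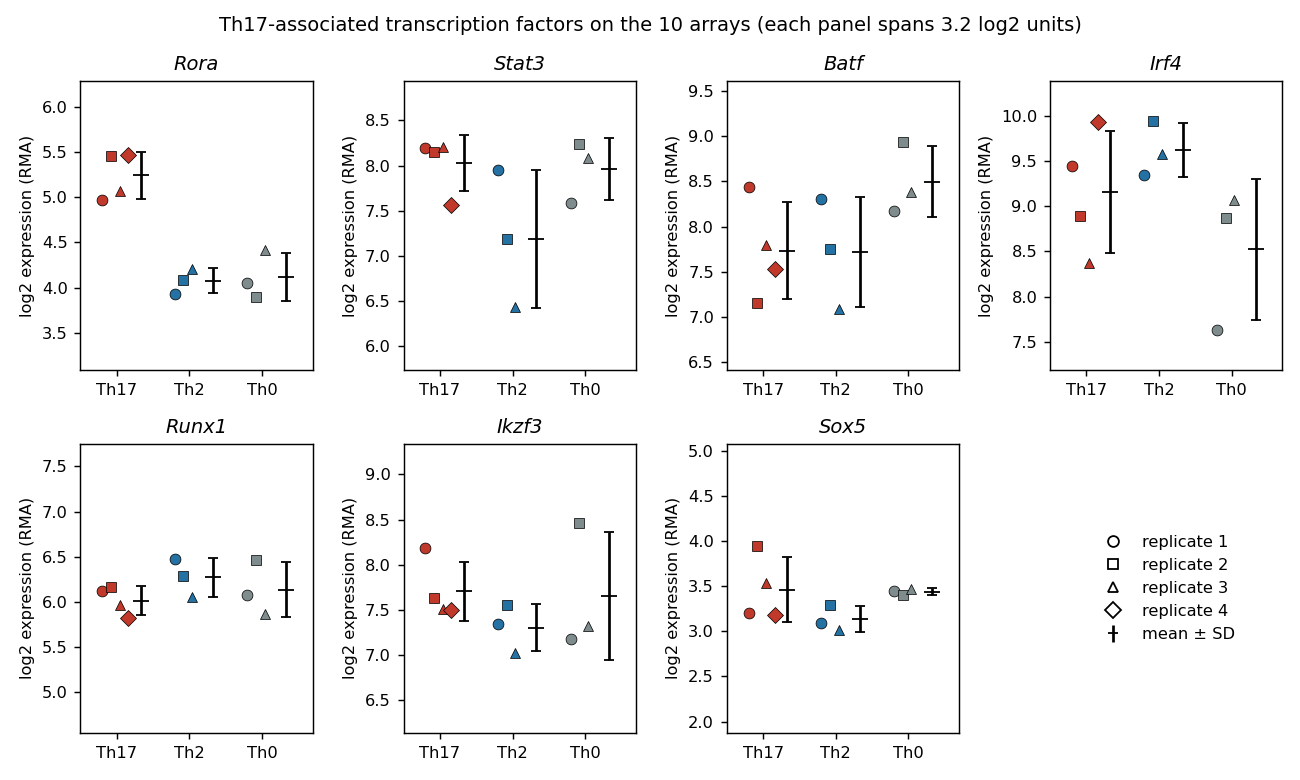
Log2 expression (RMA) of the 7 transcription factors on each array, for Th17 (n = 4), Th2 (n = 3) and Th0 (n = 3) cultures, with the mean and SD beside the points and the replicate number as the shape. Every panel spans the same height, and only for Rora do the 4 Th17 arrays (4.97 to 5.47) lie above all 6 other arrays (3.90 to 4.41).

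Rora (probe set 17518911) encodes the nuclear receptor ROR alpha, which binds DNA as a monomer and activates Il17a and Il17f. It read 4.97, 5.46, 5.07 and 5.47 in Th17 replicates 1 to 4. The readings were 3.93, 4.08 and 4.21 in Th2 replicates 1 to 3 and 4.05, 3.90 and 4.41 in Th0 replicates 1 to 3. The Th17 arrays did not overlap with those of either other group, as 3.22% of all genes were higher without overlap against Th0 and 2.60% against Th2, and the lowest of them lay 0.56 above the highest Th0 or Th2 array. Of all genes 0.730% had their 4 Th17 arrays above the 6 others, and 32 genes, Rora included, had a gap at least this wide.

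The Rora mean was 5.24 ± 0.26 (SD, n = 4) in Th17, 4.08 ± 0.14 (SD, n = 3) in Th2 and 4.12 ± 0.26 (SD, n = 3) in Th0 cultures. The difference was 1.12 ± 0.18 (SE) for Th17 minus Th0, or 2.18-fold (limma, adjusted p = 0.0549, 95% interval 0.72 to 1.53). It was 1.17 ± 0.18 (SE) for Th17 minus Th2, or 2.24-fold (limma, adjusted p = 0.0586, interval 0.76 to 1.57). Rora ranked 29th by p among 22180 genes against Th0, where 23 genes were called, and 19th against Th2, where 17 were called. An exact permutation test of Rora alone (two-sided) gave p = 0.0571 in each of these comparisons, the smallest p that 4 arrays against 3 allow. Th2 and Th0 cultures differed by -0.04 in Rora (interval -0.47 to 0.39, adjusted p = 0.985), far less than the spread between replicates, so their order is not resolved.

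The Rora probe set was a weak one. Its values stood close to the upper quartile of all probe sets on the Th17 arrays (5.02 to 5.12) and between that quartile and the median in the other groups. RMA compresses differences at low signal, which can understate a fold. Over the 10 arrays Rora correlated with the first principal component at r = 0.05, a value that includes the step between groups. Th2 replicates 1 to 3, at 3.93, 4.08 and 4.21, had scores of -34, 38.8 and 55.8. The highest Th17 reading, 5.47, was on replicate 4, at 37.5. The highest Th0 reading, 4.41, was at -14.3, below the -1 of Th0 replicate 1. The part of this component in the Rora values was not tested. Correlations of Rora with the mean of 5 marker lists of T cells and other cell types ran from -0.34 to 0.49. With the cell cycle list it was -0.41. The highest was with CD8 and NK cell markers (6 of 7 measured), whose mean was 4.29 to 4.45 in Th17, 3.76 to 4.11 in Th2 and 3.71 to 4.61 in Th0 cultures. Of the 6 measured, 1 was called: Klrd1, the CD94 receptor gene. It rose in Th17 against Th0 (by 2.29, limma, adjusted p = 0.0381), where 0.0947% of all genes were called higher. Against Th2 it rose by 2.60 (limma, adjusted p = 0.0177), where 0.0586% were called higher. The other 5 differed from Th0 by -0.47 (Cd8b1) to 0.10 (Ncr1) and from Th2 by -0.74 (Gzmm) to 0.74 (Cd8a), and the list medians were 0.07 and 0.01. The part of these markers in the Rora difference was not tested. Without the 3 arrays that stood apart on the first component (Th2 replicates 2 and 3 and Th17 replicate 4) Rora differed by 1.05 from Th0 (adjusted p = 0.102). Without the 3 arrays with most basophil and mast cell marker signal (Th0 replicate 1 and Th17 replicates 2 and 3) it differed by 1.07 (adjusted p = 1).

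**Figure D2:**
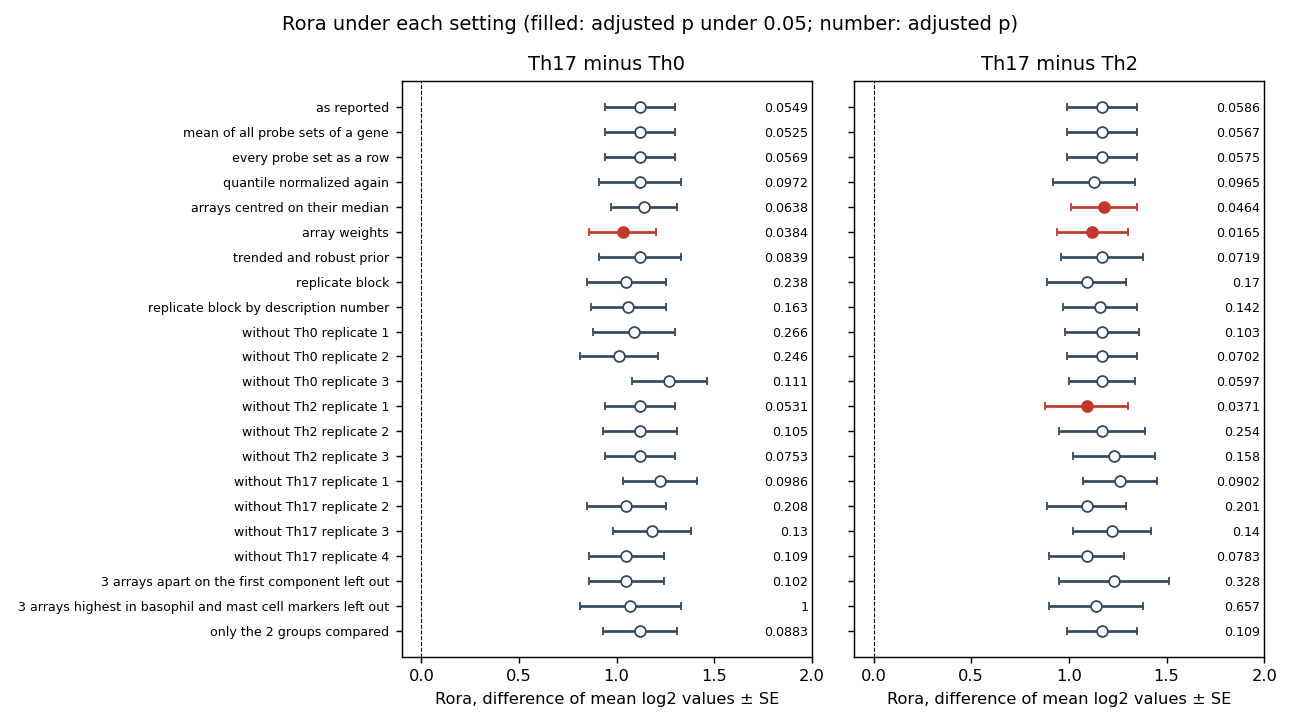
Difference of Rora (mean log2 value ± SE) between Th17 and Th0 cultures and between Th17 and Th2 cultures, as reported and under each other setting, with the adjusted p beside each point. The difference stays between 1.01 and 1.27 against Th0 and between 1.09 and 1.26 against Th2, while the adjusted p crosses 0.05 in a few settings (filled points).

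Across 21 alternative settings the sign of the Rora difference never turned against either group. It was called in 1 of them against Th0, with array weights (1.03, adjusted p = 0.0384). Against Th2 it was called in 3, with arrays centred on their median (1.18, adjusted p = 0.0464), with array weights (1.12, adjusted p = 0.0165) and without Th2 replicate 1 (1.09, adjusted p = 0.0371). More genes of any kind were called with array weights, 60 against Th0 and 330 against Th2, where 23 and 17 were called as reported. Leaving out 1 array at a time gave an adjusted p between 0.0531 and 0.266 against Th0 and between 0.0371 and 0.254 against Th2.

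The genes whose pattern over the 10 arrays was most like that of Rora, among 17206 ranked, were Cnn1 (Pearson r = 0.939), Pcdh7 (0.938), Dst (0.937) and Acsbg1 (0.932). These are descriptions over 10 arrays that share the Th17 step in level. Cnn1, at 2.85 to 3.38, and Pcdh7, at 2.48 to 2.80, lay below the median of all probe sets on every array, so little can be read from them. With the group means removed the correlations with Rora dropped to 0.71 for Cnn1, 0.58 for Pcdh7, 0.52 for Dst and 0.66 for Acsbg1. Dst, which encodes the cytoskeletal linker dystonin, read 5.54, 5.26, 4.75 and 5.99 on the Th17 arrays, against 3.70 to 4.03 on the Th2 arrays and 3.50 to 3.95 on the Th0 arrays. It differed by 1.60 from Th0 (limma, adjusted p = 0.0532) and by 1.55 from Th2 (adjusted p = 0.0762). Acsbg1, an acyl-CoA synthetase, differed by 0.97 and 1.00, and Cnn1 and Pcdh7 by 0.35 or less, with no call for any of them.

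None of the 7 factors was called in any comparison by limma, where the share of all genes called was 0.104% for Th17 against Th0, 0.0766% for Th17 against Th2 and 0% for Th2 against Th0. The F test over the 3 groups, which called 0.0631% of all genes, called none of the factors either, with Rora at adjusted p = 0.0577. An unadjusted p under 0.05 was reached by 2 of the 7 in each comparison, where 5.17%, 6.25% and 6.34% of all genes reached it. For Th17 against Th0 these were Rora, higher as 2.50% of genes were, and Batf, lower as 2.67% were. For Th17 against Th2 they were Rora and Stat3, higher as 3.18% were. For Th2 against Th0 they were Irf4, higher as 3.36% were, and Stat3, lower as 2.98% were. The comparisons with Th0 use the same Th0 arrays, and both comparisons with Th17 use the same Th17 arrays, so they are not independent.

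**Figure D3:**
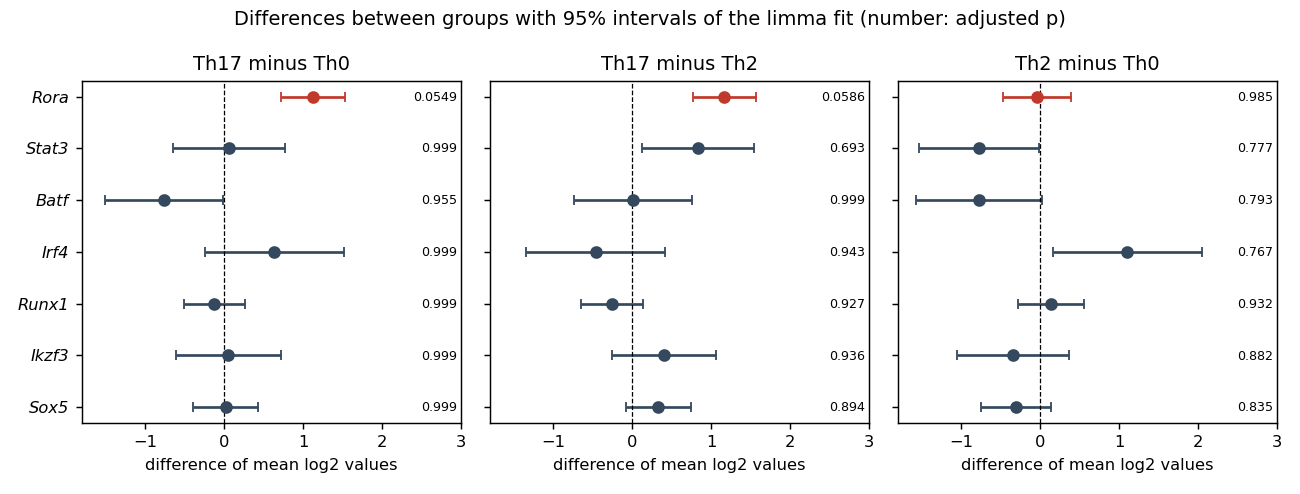
Differences of mean log2 values with 95% intervals from the limma fit for the 7 transcription factors in the 3 comparisons, with the adjusted p at the right of each row. Only the Rora intervals against Th0 (0.72 to 1.53) and Th2 (0.76 to 1.57) lie wholly above 0.5, and each adjusted p is above 0.05.

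Stat3 (probe set 17269717), the factor that IL-6 and IL-23 receptors activate, read 8.19, 8.15, 8.20 and 7.56 in Th17 replicates 1 to 4. In Th2 replicates 1 to 3 it read 7.95, 7.19 and 6.43, and in Th0 replicates 1 to 3 it read 7.58, 8.24 and 8.08. Th17 and Th0 values covered nearly the same range, and Th2 replicates 2 and 3 were the lowest of the 10 arrays. Stat3 differed by 0.06 ± 0.32 (SE) between Th17 and Th0 (interval -0.64 to 0.77, limma, adjusted p = 0.999). It differed by 0.84 between Th17 and Th2 (interval 0.13 to 1.54, adjusted p = 0.693) and by -0.78 between Th2 and Th0 (interval -1.53 to -0.02, adjusted p = 0.777).

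Stat3 moved with the largest axis of variation in the series. That axis, the first principal component, carried 35.8% of the variance and correlated with Stat3 at r = -0.90 over the 10 arrays. The arrays at its ends, Th2 replicate 3 (55.8) and Th2 replicate 1 (-34), had the narrowest and the widest interquartile range. The part of this difference in spread in the Stat3 values was not tested. Th2 replicate 3, Th2 replicate 2 and Th17 replicate 4, at 55.8, 38.8 and 37.5 on that component, had the 3 lowest Stat3 values, and the other 7 arrays lay at -1 or below. Without these 3 arrays Stat3 differed by 0.23 between Th17 and Th2 and by -0.01 between Th2 and Th0, and each value then rests on Th2 replicate 1 alone, assumed to vary like the other groups. Without Th2 replicate 3 the differences were 0.46 and -0.39, and without Th2 replicate 1 they were 1.22 (adjusted p = 0.0645) and -1.16 (adjusted p = 0.0752). The genes most like Stat3 were Nsd3 (r = 0.984), Trim8 (0.973), Ap3d1 (0.972) and Arrb2 (0.969), and these correlations were 0.984, 0.967, 0.973 and 0.952 with the group means removed.

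Batf (probe set 17277404), an AP-1 family factor that pairs with JUN proteins, read 8.44, 7.15, 7.80 and 7.53 in Th17 replicates 1 to 4. It read 8.31, 7.75 and 7.09 in Th2 replicates 1 to 3 and 8.17, 8.93 and 8.38 in Th0 replicates 1 to 3. The Th0 arrays were the highest as a group, with Th17 replicate 1 and Th2 replicate 1 inside their range. Batf differed by -0.76 ± 0.34 (SE) between Th17 and Th0 (interval -1.51 to -0.01, limma, adjusted p = 0.955). It differed by -0.78 between Th2 and Th0 (adjusted p = 0.793), by -0.47 without Th2 replicate 3 and by -1.07 without Th2 replicate 1. Without the 3 arrays apart on the first component it differed by -0.19 between these groups, a value that rests on Th2 replicate 1 alone. It differed by 0.02 between Th17 and Th2 (interval -0.73 to 0.76, adjusted p = 0.999), with values from -0.30 to 0.31 when 1 array was left out.

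Batf followed the cell cycle genes over the 10 arrays at r = 0.88. That list (16 of 17 measured) had means from 6.54 to 7.52 on the Th17 arrays, 6.39 to 8.02 on the Th2 arrays and 7.54 to 7.94 on the Th0 arrays. All 16 cell cycle genes had lower means in Th17 than in Th0 cultures, by a median of 0.78, and in Th2 than in Th0 cultures, by a median of 0.80, and limma called none of them. At an unadjusted p under 0.05 there were 5 lower in each of these comparisons, where 2.67% and 2.98% of all genes were lower. The genes most like Batf were Fdps (r = 0.979) and Fdft1 (0.951), enzymes of the sterol pathway, the mitochondrial protein gene Prelid1 (0.965) and Dscc1 (0.955), which acts in sister chromatid cohesion. The part of the cell cycle genes in the Batf values was not tested.

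Irf4 (probe set 17286295), an interferon regulatory factor induced through the T cell receptor and needed by both Th2 and Th17 cells, read 9.45, 8.89, 8.37 and 9.93 in Th17 replicates 1 to 4. It read 9.34, 9.94 and 9.58 in Th2 replicates 1 to 3 and 7.63, 8.87 and 9.07 in Th0 replicates 1 to 3. The Th2 arrays lay above all Th0 arrays, as 4.48% of all genes did, and the Th17 arrays spanned most of the range of both. Irf4 differed by 1.10 ± 0.43 (SE) between Th2 and Th0 (2.14-fold, limma, adjusted p = 0.767, interval 0.16 to 2.04). It differed by 0.64 between Th17 and Th0 (interval -0.24 to 1.52, adjusted p = 0.999) and by -0.46 between Th17 and Th2 (interval -1.34 to 0.42, adjusted p = 0.943).

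Irf4 ran against the basophil and mast cell markers at r = -0.89. The mean of that list (8 of 8 measured) was 3.43 to 5.84 on the Th17 arrays, 3.29 to 4.21 on the Th2 arrays and 3.44 to 6.99 on the Th0 arrays. Its highest array, Th0 replicate 1, had the lowest Irf4 value, 7.63, and the next highest, Th17 replicates 3 and 2, read 8.37 and 8.89. The part of these markers in the Irf4 values was not tested, and in bulk RNA fewer helper cells and less RNA per cell cannot be told apart. Without these 3 arrays Irf4 differed by 0.72 between Th17 and Th0, 0.07 between Th17 and Th2 and 0.65 between Th2 and Th0. Without Th0 replicate 1 alone it differed by 0.19 between Th17 and Th0 and by 0.65 between Th2 and Th0. The genes most like Irf4 were Bzw1 (r = 0.951), Pknox1 (0.939), Hyou1 (0.938) and Ints13 (0.935).

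**Figure D4:**
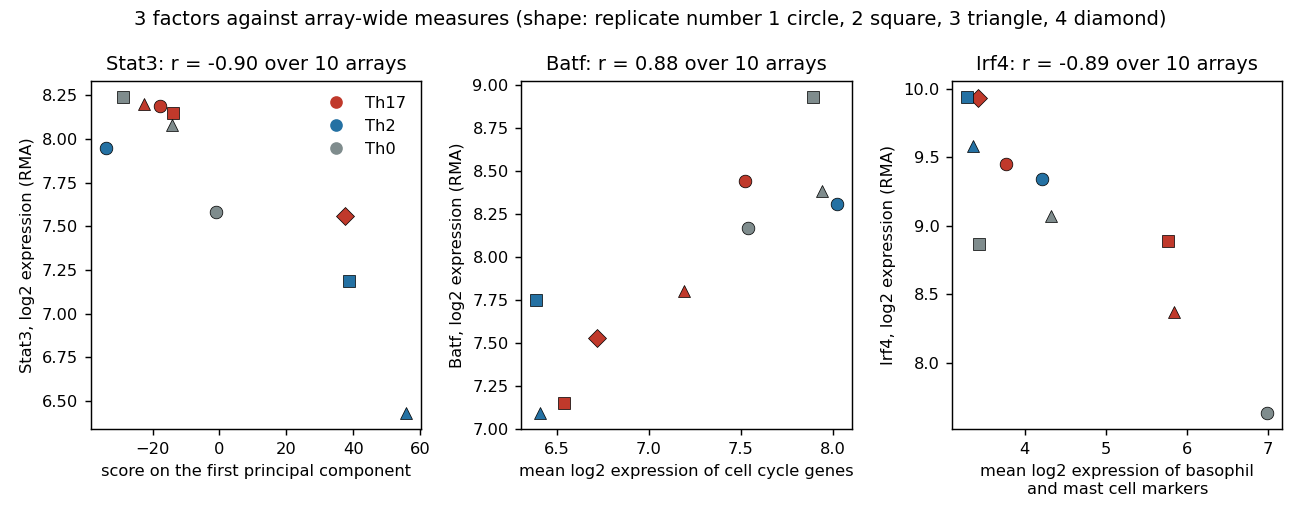
Log2 expression of Stat3, Batf and Irf4 on each of the 10 arrays against an array-wide measure: the score on the first principal component, the mean of 16 cell cycle genes and the mean of 8 basophil and mast cell markers. Colours give the group and shapes the replicate number. The factors follow these measures at r = -0.90, 0.88 and -0.89 across groups, with Th2 replicate 3 at one end of the first panel and Th0 replicate 1 at one end of the last.

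BATF and IRF4 bind together at composite DNA elements in T cells, so the stretches before their own start sites are shown. They are the 250 bases before the RefSeq start (GRCm38.p6, forward strand, 5′ to 3′), and capitals mark matches to any of 7 motifs searched on both strands.
Batf, chr12:85686470-85686719: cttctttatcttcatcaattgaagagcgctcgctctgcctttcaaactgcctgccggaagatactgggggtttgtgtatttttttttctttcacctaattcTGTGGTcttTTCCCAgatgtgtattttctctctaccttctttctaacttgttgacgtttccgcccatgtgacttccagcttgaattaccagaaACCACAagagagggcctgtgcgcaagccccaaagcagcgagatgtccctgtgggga
Irf4, chr13:30748983-30749232: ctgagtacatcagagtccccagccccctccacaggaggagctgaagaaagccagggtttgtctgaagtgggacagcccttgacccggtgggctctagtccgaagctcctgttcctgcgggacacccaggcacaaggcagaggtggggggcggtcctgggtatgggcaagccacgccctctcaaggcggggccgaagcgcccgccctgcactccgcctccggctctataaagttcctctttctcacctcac
The motifs were TTCNNNGAA for STAT factors, TGANTCA for AP-1, TAGGTCA for ROR, TGTGGT for RUNX, GAAA repeated after 2 free bases for IRF, AACAAT for SOX and TGGGAA for Ikaros family factors. In 32851 such windows they were found in 7.02%, 6.75%, 2.23%, 14.0%, 2.98%, 9.42% and 21.6%, in that order. The Batf window held RUNX letters at 2 places, starting 149 and 56 bases before the start, and Ikaros letters at 1 place, 140 bases before it. The Irf4 window held none of the 7. Of the 7 factors 6 had such a window in the RefSeq table, and the windows of Rora, Stat3, Runx1 (2 starts) and Sox5 also held none. These matches are letters in short windows and no measure of binding.

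Runx1 (probe set 17332236), the DNA-binding subunit that pairs with CBF beta, read 6.12, 6.16, 5.96 and 5.82 in Th17 replicates 1 to 4. It read 6.48, 6.29 and 6.05 in Th2 replicates 1 to 3 and 6.08, 6.46 and 5.87 in Th0 replicates 1 to 3. The groups overlapped, and all 10 arrays lay between 5.82 and 6.48. The differences were -0.12 for Th17 minus Th0 (interval -0.51 to 0.27), -0.26 for Th17 minus Th2 (interval -0.65 to 0.13) and 0.14 for Th2 minus Th0 (interval -0.28 to 0.55). The smallest adjusted p was 0.927. Cbfb, its partner, read 7.51 to 7.83 on the Th17, 7.08 to 7.59 on the Th2 and 6.55 to 7.88 on the Th0 arrays, again with overlap. The genes most like Runx1 were Qpctl (r = 0.915), Foxo3 (0.895), Fv1 (0.894) and Synj2bp (0.887).

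Ikzf3 (probe set 17268820), the gene of Aiolos, read 8.19, 7.63, 7.51 and 7.50 in Th17 replicates 1 to 4. It read 7.35, 7.55 and 7.02 in Th2 replicates 1 to 3 and 7.18, 8.46 and 7.32 in Th0 replicates 1 to 3. Th0 replicate 2 and Th17 replicate 1 were the highest, 1 array of each group, and the remaining arrays lay between 7.02 and 7.63. The difference between Th17 and Th0 was 0.05 (interval -0.61 to 0.72, limma, adjusted p = 0.999). Without Th0 replicate 2 it was 0.46, and without Th0 replicate 1, Th0 replicate 3 or Th17 replicate 1 its sign turned. The B cell marker list (8 of 10 measured) was also highest on Th17 replicate 1 and Th0 replicate 2, at 4.65 and 4.64. Ighm, the IgM heavy chain gene, set most of this, at 10.41 and 9.68 there. Cd79a (4.21 and 3.99) and Cd79b (4.78 and 4.41) were also highest on these arrays. H2-Ab1 read 5.64 and 5.81 there and 6.59 on Th0 replicate 1. Ms4a1, Cr2, Ebf1 and Pax5 stayed at 4.00 or less on every array. Ikzf3, which B cells express too, correlated with that list at r = 0.66, and its most similar gene was Blnk, at r = 0.933, whose values of 2.99 to 3.52 were near or below the median of all probe sets. It was followed by Zfp407 (0.904), Acbd5 (0.901) and Slc2a1 (0.892). The correlation of Ikzf3 with the CD8 and NK cell markers was 0.75. The part of these cell types in the Ikzf3 values was not tested.

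Sox5 (probe set 17472641) read 3.20, 3.94, 3.53 and 3.18 in Th17 replicates 1 to 4. It read 3.09, 3.29 and 3.01 in Th2 replicates 1 to 3 and 3.45, 3.40 and 3.47 in Th0 replicates 1 to 3. These values lay around the median of all probe sets, which ran from 3.39 to 3.61 over the arrays, so little can be read from them. The Th2 arrays were all below the Th0 arrays, as 3.94% of all genes were, by a mean of 0.31 (interval of the difference -0.75 to 0.14, limma, adjusted p = 0.835). Between Th17 and Th0 the difference was 0.02 (interval -0.39 to 0.44), and without Th17 replicate 2 it was -0.14. The genes most like Sox5 were Calr4 (r = 0.918), Tspan2os (0.914), Tex22 (0.914) and Axin2 (0.896).

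The factors did not vary together as a set. Over the 10 arrays the 21 pairwise correlations ran from -0.60 (Rora with Runx1) to 0.60 (Ikzf3 with Stat3), as a description of arrays that share their group structure. With the group means removed, all pairs among Runx1, Ikzf3, Batf and Stat3 were positive. They ran from 0.48 (Ikzf3 with Stat3) to 0.77 (Runx1 with Ikzf3), with Batf and Stat3 at 0.73 and Ikzf3 and Batf at 0.70. Rora was negative with each of these factors, from -0.47 (Stat3) to -0.76 (Batf). The group means accounted for 89.1% of the variance of Rora, 45.1% of that of Stat3, 39.8% of Irf4, 39.3% of Batf, 33.8% of Sox5, 24.6% of Runx1 and 17.3% of Ikzf3.

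Genes that these factors are known to bind or induce in Th17 cells had a larger median difference than the factors themselves. The list of these genes was chosen with earlier results of these data known, so this is a description and no test. Of 14 such target genes, all measured, 12 had higher means in Th17 than in Th0 cultures, with a median difference of 1.11 against -0.01 over all genes. Il17f, Il1r1 and Il23r rose (limma, adjusted p = 0.000676, 0.0381 and 0.0473), 3 of 14 where 0.0947% of all genes were called higher. Against Th2, 13 of 14 had higher means, the median difference was 1.59 and Il17f rose (adjusted p = 0.00321), where 0.0586% of all genes were called higher. Il17a, Il21, Il22 and Furin differed by 4.22, 3.00, 1.95 and 1.18 between Th17 and Th0 without being called, with adjusted p from 0.180 to 0.972. The mean of the list was 6.87 to 7.35 on the Th17 arrays, 5.37 to 5.68 on the Th2 arrays and 4.94 to 6.05 on the Th0 arrays, so Th17 did not overlap with the others.

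Il22, a cytokine that acts on epithelial cells, was uneven among the Th17 cultures. It read 2.89, 3.39, 5.35 and 5.14 in Th17 replicates 1 to 4, against 1.87 to 2.31 in Th2 and 2.21 to 2.25 in Th0 cultures. Every Th17 array was above the rest, as 0.730% of all genes were, and replicates 3 and 4 were the high ones. Th17 replicates 1 and 2 lay below the median of all probe sets on their arrays (3.44 and 3.49), as did all Th2 and Th0 arrays. Little can be read from such low values. Rora was at 5.07 and 5.47 on Th17 replicates 3 and 4 and at 4.97 and 5.46 on replicates 1 and 2. Il22 and Rora thus did not share their order among the Th17 arrays. Il21, an autocrine cytokine of Th17 cells, read 9.73, 9.13, 9.22 and 10.22 on the Th17 arrays, against 5.97 to 7.24 on the Th2 arrays and 5.22 to 8.52 on the Th0 arrays.

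**Figure D5:**
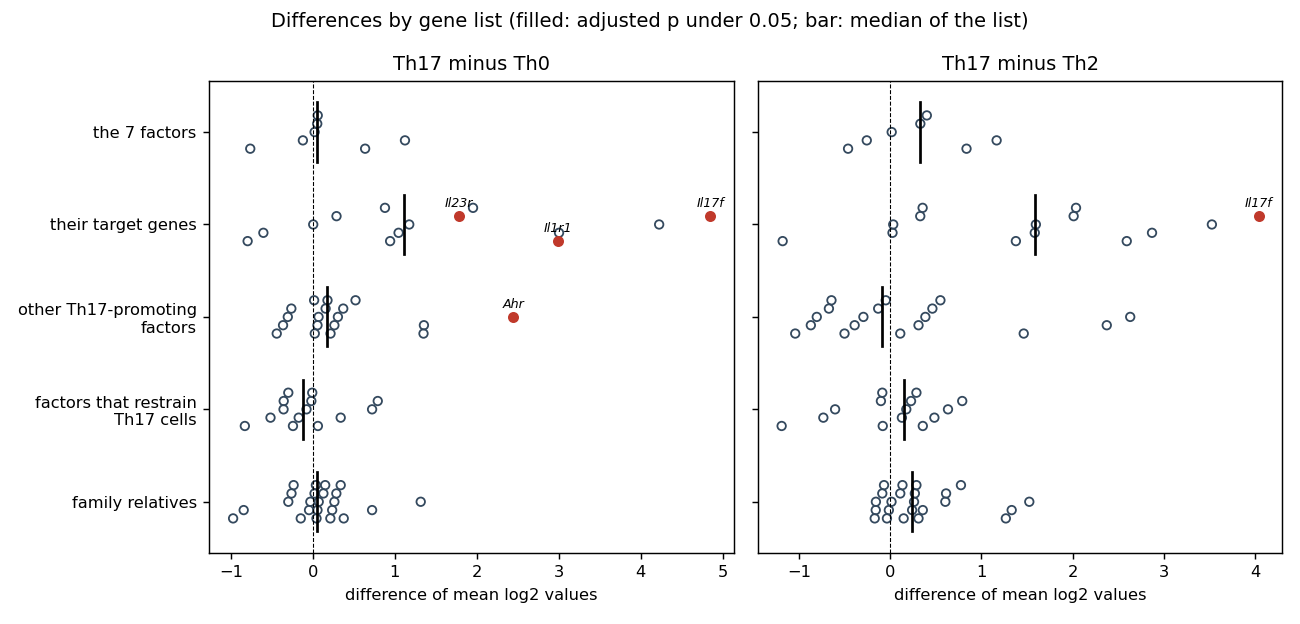
Differences of mean log2 values for the 7 transcription factors, 14 of their target genes, 18 other Th17-promoting factors, 14 factors that restrain Th17 cells and 23 family relatives, for Th17 minus Th0 and Th17 minus Th2. Each circle is a gene, filled circles have an adjusted p under 0.05, and bars are list medians. The median of the target genes is 1.11 and 1.59, and that of the 7 factors 0.05 and 0.33.

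Among 18 measured of 19 other factors listed as promoting the Th17 fate, 1 was called against Th0 and 0 against Th2 by limma, where 0.104% and 0.0766% of all genes were. At an unadjusted p under 0.05 there were 4 against Th0 (3 higher, 1 lower) and 7 against Th2 (4 higher, 3 lower). In either direction 5.17% and 6.25% of all genes were. Ahr, the aryl hydrocarbon receptor, rose by 2.45 in Th17 against Th0 (limma, adjusted p = 0.0381) and differed by 2.37 from Th2 (adjusted p = 0.0502). Their median difference was 0.17 against Th0, with 14 higher, and -0.09 against Th2, with 8 higher. Maf, the c-Maf factor, read 9.73, 9.51, 9.08 and 8.63 on the Th17 arrays, against 7.25, 5.59 and 6.98 on the Th2 arrays and 7.61, 8.96 and 7.07 on the Th0 arrays. The Th17 arrays were all above the Th2 arrays, as 2.60% of all genes were, at a difference of 2.63 (limma, adjusted p = 0.113). They overlapped with Th0 replicate 2, and Maf differed by 1.35 from Th0 (adjusted p = 0.839). Arid5a, an RNA-binding factor that stabilises Stat3 and Il6 transcripts, differed by 1.35 from Th0 (adjusted p = 0.901). It read 5.84 to 6.97 in Th17 against 4.03 to 5.55 in Th0 cultures, higher without overlap as 3.22% of all genes were. The Th2 arrays, at 3.96 to 6.29, overlapped with Th17. Pou2af1 and Crem differed by 0.52 and -0.44.

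Of 14 measured among 16 factors listed as restraining Th17 cells, limma called 0 in each comparison. For Th17 against Th0, 2 reached an unadjusted p under 0.05, 1 higher and 1 lower, where 5.17% of all genes reached it. For Th17 against Th2 there were 3, where 6.25% of all genes reached it (2 of the 3 lower, as 3.07% of all genes were). For Th2 against Th0 there was 1, where 6.34% of all genes reached it. The median difference of these 14 factors from Th0 was -0.12. Foxo1, which holds back Th17 genes in mouse T cells, had the largest positive difference from Th0, at 0.79 (adjusted p = 0.0838). It read 7.98 to 8.38 in Th17, 7.50 to 7.55 in Th2 and 7.26 to 7.52 in Th0 cultures. The Th17 arrays lay above all others, as 0.730% of all genes did, and Th2 and Th0 overlapped. Foxp3, the regulatory T cell factor, differed by -0.83, Stat5a by 0.72 and Tbx21, the Th1 factor T-bet, by -0.52 from Th0. Against Th2 the widest differences were those of Egr2, at -1.19 (adjusted p = 0.704), and Eomes, at 0.79.

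Relatives of the factors within their families were measured for 23 of 28 listed genes, and limma called 0 of them in any comparison, with 3, 4 and 3 at an unadjusted p under 0.05 for Th17 against Th0, Th17 against Th2 and Th2 against Th0, where 5.17%, 6.25% and 6.34% of all genes were. Batf3, the closest in role to Batf, read 5.69, 4.38, 5.41 and 5.22 on the Th17 arrays, against 4.62, 3.01 and 3.32 on the Th2 arrays and 3.04, 3.69 and 4.84 on the Th0 arrays. It differed by 1.32 from Th0 and 1.52 from Th2 (adjusted p = 0.874 and 0.591), whereas Batf differed by -0.76 and 0.02. Rorb, the relative of Rora typical of the nervous system, read 2.60 to 3.21 on all 10 arrays, with a difference of -0.05 between Th17 and Th0. Stat4, the IL-12 signal factor, differed by -0.97 from Th0 and was lower on each Th17 array (7.29 to 7.82) than on each Th0 array (7.86 to 9.23), as 4.35% of all genes were. Ikzf2, the Helios gene, differed by -0.84 and Runx3 by 0.29 from Th0, and Runx3 by 1.33 from Th2.

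Each group was checked against T cell identity genes, of which 9 of 11 were measured. Their mean lay between 8.54 and 9.12 in Th17, 8.54 and 9.28 in Th2 and 8.90 and 9.52 in Th0 cultures, and Cd3e was at 9.36 or higher on every array. Myeloid markers (9 of 9 measured) had means of 4.13 or less and B cell markers of 4.65 or less on each array, although S100a8, a neutrophil gene, reached 7.16 on Th17 replicate 1. Basophil and mast cell markers reached a mean of 6.99 on Th0 replicate 1. The erythroid and platelet list (3 of 7 measured) had means of 3.25 to 5.99 in Th17, 3.48 to 5.67 in Th2 and 4.48 to 7.20 in Th0 cultures. Its platelet genes Ppbp and Pf4 were highest on Th0 replicate 1, at 9.43 and 7.49. The part of these cells in the results was not tested.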

How the data were processed

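The deposited log2 values, 1 per probe set and array, came from RMA in Affymetrix Expression Console 1.3.0.187 per the submitters' processing notes. Its genome build was not given in these sources. The table held 41345 probe sets on 10 arrays, with values from 1.49 to 13.8. Quantile normalization within RMA hides a change in total RNA per cell. A platform table paired 23521 probe sets with 1 gene symbol. Probe sets with several symbols (1814) or no entry (16010) were not used. A gene was represented by its brightest probe set on average, which left 22180 genes, and no filter on low values was used. Groups and replicate numbers come from the titles, and the description of Th2 replicate 3 carries the number 4.

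All genes and arrays entered one fit of 3 group means with limma 3.58.1 in R 4.3.3 (lmFit, eBayes, 7 residual degrees of freedom). Adjusted p-values follow Benjamini-Hochberg over all genes of a comparison, from two-sided tests. The procedure was tested on simulated data. The number of arrays limits the precision. The first principal component was computed over the 22180 genes.

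The 7 members are all named. Of each list the called genes are named, with up to 4 by difference from Th0 and 2 by difference from Th2, and 4 genes per member by Pearson r, without gene models, small RNA, receptor segment and olfactory genes. Cbfb, Rorb, Cd3e, Cd8b1, Ncr1, Gzmm, Cd8a, Ighm, Ms4a1, Cr2, Ebf1, Pax5, S100a8, Ppbp, Pf4, Il22 per array and Runx3 against Th0 were named after their values were seen. So were Cd79a, Cd79b and H2-Ab1. The members, lists and settings were chosen with earlier results of these data known. Some listed genes are not reported here. Alternatives tried covered probe set choice, a minimum mean of 5, another quantile normalization, median centring, array weights, a trended and robust prior, fits of 2 groups, replicate blocks, each array left out and 2 sets of 3 arrays left out.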

Additional observations from a re-analysis of the deposited data

Results flagged for a closer look

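In Th17 cultures Stat3 had 1 array far from the others: replicate 4, at 7.56, lay below the other 3 arrays, at 8.15 to 8.20. The gap made up 0.912 of the range of the group, above the 95% critical value of Dixon's test for 4 samples. This array was also at 37.5 on the first principal component, where the other Th17 arrays were at -13.9 or below. Without it Stat3 differed by 0.22 between Th17 and Th0 and by 0.99 between Th17 and Th2. Of the 7 factors this was the 1 flagged, and chance flags about 1 in 20 groups.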

How the results depend on the processing

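Of 456 member values under alternatives, 433 kept their direction and their side of the threshold, 19 turned direction and 4 became called, all 4 of Rora. Rora and Sox5 have no value with a minimum mean of 5, since both lie below it. None of the turned values was called. Leaving out 1 array at a time, differences between Th17 and Th0 ran from -0.18 to 0.46 for Ikzf3, -0.13 to 0.22 for Stat3, -0.26 to 0.04 for Runx1 and -0.14 to 0.12 for Sox5. Between Th17 and Th2 Batf ran from -0.30 to 0.31, and between Th2 and Th0 Ikzf3 ran from -0.58 to 0.06 and Rora from -0.15 to 0.10. Without the 3 arrays high in basophil markers, Sox5 was at -0.24, Ikzf3 at -0.04 and Stat3 at -0.28 between Th17 and Th0, and Irf4 at 0.07 between Th17 and Th2. Batf between Th17 and Th2 was at -0.02 after another quantile normalization and 0 with the block by description number. Without the 3 arrays apart on the first component it was at -0.51, which rests on Th2 replicate 1 alone.

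Counts of called genes moved more, and the cause was not tested. For Th17 against Th0 (23) the count was 6 with median centring, 60 with array weights, 8 with the replicate block, 5 with the block by description number, 46 without the 3 arrays apart, 3 without the 3 arrays high in basophil markers, and 2 to 36 leaving out 1 array. For Th17 against Th2 (17) it was 10 with a minimum mean of 5, 30 with another quantile normalization, 330 with array weights, 11 with the replicate block, 5 with the block by description number, 6 without the 3 arrays high in basophil markers, and 3 to 298 leaving out 1 array. For Th2 against Th0 (0) it was 2 without the 3 arrays apart and 0 to 431 leaving out 1 array, the highest without Th2 replicate 1. Members called were 0 in each comparison as reported. The count was 1, Rora, with array weights in both Th17 comparisons and the F test, with median centring for Th17 against Th2, and 0 to 1 leaving out 1 array for Th17 against Th2 and the F test.

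Whether replicate numbers pair the samples cannot be settled with so few arrays. Of 9 pairs with the same title number 1 had a correlation of deviations over 0.1 (range -0.31 to 0.30). Of 8 pairs by description number 2 did (range -0.29 to 0.49), the highest being Th2 replicate 3 with Th17 replicate 4. Both of these arrays also stood apart on the first component. With the replicate block Rora differed by 1.05 from Th0 (adjusted p = 0.238) and 1.09 from Th2 (adjusted p = 0.170).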
